A study of Arabidopsis thaliana with 36 samples.

Results

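The 26S proteasome is the protease that degrades ubiquitin-tagged proteins in the cytosol and nucleus of plant cells. Its 20S core is a barrel of alpha and beta rings with the protease sites on the inside. The 19S regulatory particle caps the barrel: a ring of RPT ATPases and the large RPN1 and RPN2 scaffolds form its base, and the remaining RPN subunits form the lid or receive ubiquitin chains. In Arabidopsis most subunits are encoded by a pair of paralogues. The 52 genes described here were chosen by locus identifier as known subunits and are 52 of the 33557 genes in the deposited table. They comprise 12 alpha, 11 beta, 10 RPT and 19 RPN genes, which together encode 32 subunits, 20 of them from 2 genes each. In the counts below, RPN13 is placed with the base and RPN10 with neither base nor lid. All 52 passed the expression filter of 1 RPKM (a read density corrected for gene length and library size) in 3 libraries, as did 20411 genes in all.

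The study compared roots of the Arabidopsis otu5 mutant with its wild type (WT), each grown with a control supply of phosphate (Pi) or with low Pi. OTU5 belongs to the OTU-domain proteases, which cleave ubiquitin from proteins. By title there were 4 groups of 3 libraries of polyA RNA. They were otu5 on low Pi, otu5 on control medium, WT on low Pi and WT on control medium. All were harvested 14 days after germination. A label on culture condition contradicts some of these titles. The allele, the ecotype and the Pi concentrations are not given in the labels, and nothing in them says whether the 3 libraries of a group came from separate cultures, so p-values measure the spread between these libraries, which may be technical.

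OTU5 itself (AT3G62940) had 0.432, 0.999 and 1.00 RPKM in the otu5 low Pi libraries and 1.33, 1.71 and 1.04 RPKM in the otu5 control libraries, against 40.6, 38.9 and 40.2 RPKM in WT low Pi and 43.1, 40.0 and 39.6 RPKM in WT control. All 12 libraries therefore carried the OTU5 level of the genotype in their label. The log2 differences were -4.98 on low Pi and -4.49 on control medium (exact two-sided permutation p = 0.1 each, the smallest that 3 against 3 libraries allows).

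Library sums lay between 993382 and 1330830 RPKM, relative depth between 0.671 and 1, and absolute depth is unknown, so no counting interval is given. Root endodermis markers (5 genes, led by CASP1 and ESB1) were present in every library, with summed levels of 213 to 227 RPKM in otu5 low Pi, 241 to 282 in otu5 control, 234 to 280 in WT low Pi and 272 to 297 in WT control. Green tissue markers (12 photosynthesis genes) were present too, although the tissue is labelled root and a further label on RNA isolation names rosette leaves. In bulk tissue, fewer cells of a type and less RNA per cell cannot be told apart.

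Most proteasome subunit transcripts were abundant. On the per-length RPKM scale the median member averaged 89.0 over the 12 libraries, against 15.6 for all genes tested, and 27 members lay among the top 10% of genes tested. RPT1A (AT1G53750), an ATPase of the base, was the most abundant member with a mean of 195 RPKM, followed by the alpha ring gene PAG1 (AT2G27020) with 161 RPKM. PBF1 (AT3G60820, 146 RPKM) was the highest beta gene and RPN7 (AT4G24820, 149 RPKM), a lid subunit, the highest RPN gene. The lowest gene of each class was PAD2 (AT5G66140, 32.8 RPKM) in the alpha ring, PBE2 (AT3G26340, 24.5 RPKM) in the beta ring, RPT6B (AT5G20000, 46.6 RPKM) among the RPT genes and RPN12B (AT5G42040), a lid gene with a mean of 1.41 RPKM, among the RPN genes. In all, 21 members averaged over 100 RPKM and 5 under 30 RPKM. Of the 51 pairs of neighbours in the order of mean level, 7 stood in the same order in all 12 libraries and 44 did not. The members also varied little between libraries of one group: their median coefficient of variation was 3.22%, against 7.30% for all genes tested. The 2 sets were not matched for level, and the members were more abundant. All differences described next are small, and the largest change of any member between 2 groups was between -19.7% and 21.1%.

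On control medium, transcripts of the 20S core were lower in otu5 than in WT, while no 20S gene was called higher. Of the 52 members, 9 were called lower and 2 higher by limma at an adjusted p under 0.05, against a background of 5.52% called lower and 4.85% called higher among all genes tested. Of the 23 core genes 7 were called lower, as were 2 of the 29 genes of the 19S particle, and both rises were in base scaffold genes. The difference between core and 19S was not tested. The median log2 difference, otu5 minus WT, was -0.14 over the core genes (a change of -9.41%), 0.03 over the RPT genes, -0.05 over the RPN genes (-0.07 over the 13 lid genes, of which 10 were below 0) and 0.003 over all genes tested. Signs ran the same way, with 20 of 23 core genes below 0, against 49.1% of all genes. The 3 otu5 libraries lay entirely below the 3 WT libraries for 18 of 23 core genes, a pattern held by 17.2% of all genes tested, and for 0 core genes above. In the 19S particle they lay entirely below WT for 8 of 29 genes and entirely above for 7, against 15.9% of all genes above. Summed over the paralogues of a subunit, 13 of 14 core subunits had otu5 control libraries entirely below WT control, with no background share computed for sums. The exception was PAA, with 252 ± 4.1 RPKM in otu5 and 257 ± 1.21 RPKM in WT (SD, n = 3 each).

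**Figure D1:**
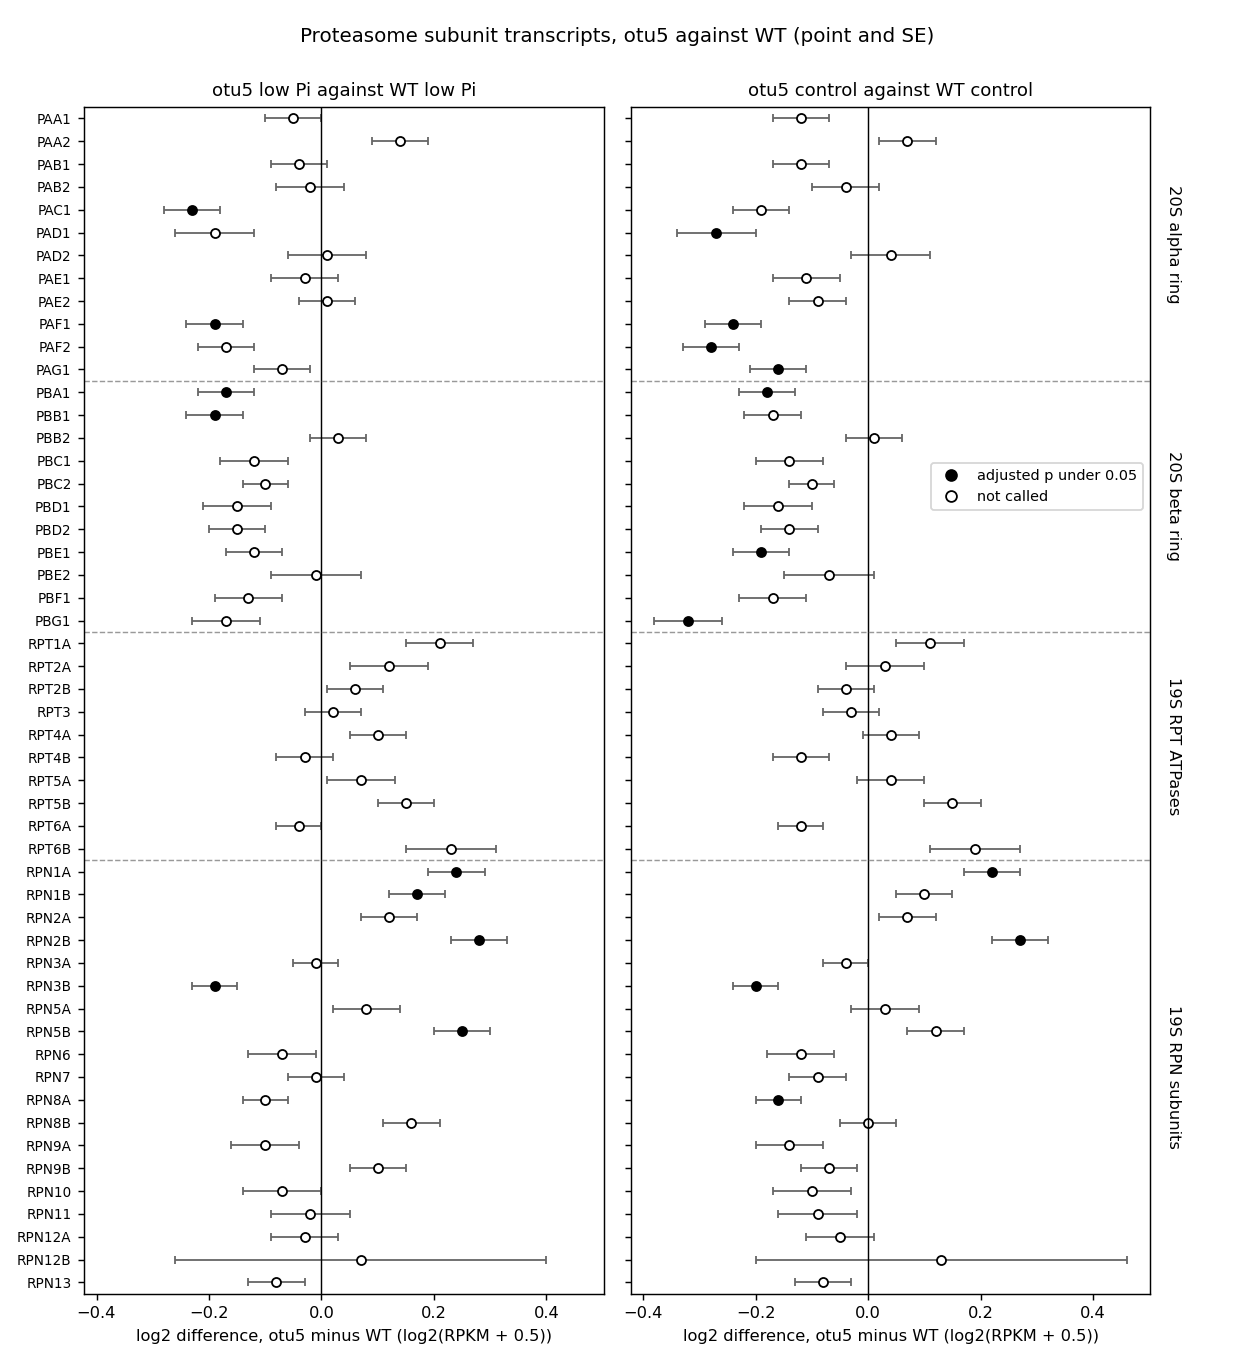
Each row is 1 of the 52 subunit genes, grouped by class. Points give the log2 difference in RPKM, otu5 minus WT, with its standard error, on low Pi (left) and on control medium (right), and filled points have an adjusted p under 0.05. Most alpha and beta genes lie left of 0 in both panels, and RPN1A and RPN2B lie right of 0.

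The 5 core genes with the smallest p-values were 2 beta and 3 alpha ring genes. PBG1 (AT1G56450), a beta ring gene without a paralogue here, had 112, 114 and 108 RPKM in otu5 control, against 137, 141 and 137 RPKM in WT control. The otu5 libraries were all below the WT libraries, and the log2 difference was -0.32 ± 0.06 (SE, adjusted p = 0.012), the lowest of the 52 on this medium. Its locus overlaps AT1G56440, a gene of 12.6 RPKM that was higher in otu5 by 0.24 ± 0.07 (adjusted p = 0.047). PAF1 (AT5G42790), an alpha ring gene, had 123, 122 and 126 RPKM in otu5 control, against 145, 145 and 150 RPKM in WT control. Its log2 difference was -0.24 ± 0.05 (adjusted p = 0.013). Its paralogue PAF2 (AT1G47250) had 47.9, 46.6 and 44.0 RPKM in otu5 control, against 55.6, 56.0 and 56.4 RPKM in WT control. The log2 difference of PAF2 was -0.28 ± 0.05 (adjusted p = 0.01), but its locus overlaps AT1G47260, an abundant gene that changed by -0.21 ± 0.05 (adjusted p = 0.021). Whether strand was used in counting is not given. Reads from the stretch that overlapping genes such as PAF2 and AT1G47260 share therefore cannot be told apart. The length of each overlap is not given here, and 19 of the 52 members have such an overlap. PAD1 (AT3G51260), a further alpha gene, had 96.7, 101 and 97.8 RPKM in otu5 control, against 127, 116 and 114 RPKM in WT control (log2 difference -0.27 ± 0.07, adjusted p = 0.029). PBA1 (AT4G31300) encodes the caspase-like protease subunit. It had 106, 109 and 109 RPKM in otu5 control, against 123, 121 and 123 RPKM in WT control (log2 difference -0.18 ± 0.05, adjusted p = 0.035). The groups did not overlap for any of these 5 genes.

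Among the other genes called lower on control medium were PBE1 (AT1G13060), the main gene of the chymotrypsin-like protease subunit, and PAG1, with log2 differences of -0.19 ± 0.05 and -0.16 ± 0.05 and adjusted p-values of 0.047 and 0.049. PBB1 (AT3G27430), a gene of the trypsin-like subunit, had -0.17 ± 0.05 and was not called (adjusted p = 0.057). PAC1 (AT3G22110) missed the threshold narrowly, at -0.19 ± 0.05 with an adjusted p of 0.0503. In the 19S particle, the falls were in the lid. RPN3B (AT1G75990), the less abundant gene of a lid subunit, had 24.6, 26.2 and 24.9 RPKM in otu5 control, against 29.3, 28.3 and 29.7 RPKM in WT control. Its log2 difference was -0.20 ± 0.04 (adjusted p = 0.016). RPN3B overlaps AT1G75980, a gene of 12.8 RPKM with a difference of -0.22 ± 0.08 on this medium (adjusted p = 0.12). RPN8A (AT5G05780), which encodes the lid partner of the deubiquitinating subunit RPN11, had 102, 104 and 99.3 RPKM in otu5 control, against 115, 110 and 115 RPKM in WT control (log2 difference -0.16 ± 0.04, adjusted p = 0.04). RPN11 itself (AT5G23540) was at 101 ± 2.51 RPKM in otu5 control and 108 ± 5.04 RPKM in WT control (SD, n = 3 each), and was not called.

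The 2 rises were in the scaffolds of the base. Over all members on control medium, the share called higher was no larger than the 4.85% called higher among all genes tested. Without replicate 3 of otu5 control or of WT control, or without the expression filter, 0 members were called higher. RPN2B (AT1G04810), the less abundant RPN2 gene, had 40.0, 41.0 and 41.6 RPKM in otu5 control, against 34.7, 33.0 and 33.5 RPKM in WT control. RPN1A (AT2G20580) encodes a docking site for ubiquitin receptors and for the deubiquitinase UBP6. It had 71.4, 68.8 and 71.9 RPKM in otu5 control, against 62.9, 58.3 and 61.2 RPKM in WT control. Both were higher in every otu5 library, with log2 differences of 0.27 ± 0.05 (adjusted p = 0.014) for RPN2B and 0.22 ± 0.05 (adjusted p = 0.027) for RPN1A. None of the 10 RPT genes was called on this medium (2 higher and 2 lower at an unadjusted p under 0.05 in limma), and their highest log2 difference was that of RPT6B, 0.19 ± 0.08 with an adjusted p of 0.17. The ubiquitin receptor genes RPN10 (AT4G38630) and RPN13 (AT2G26590) were not called either, at 110 ± 3.8 and 40.6 ± 1.47 RPKM in otu5 control, against 118 ± 0.192 and 43.0 ± 1.52 RPKM in WT control (SD, n = 3 each).

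The counts of calls depended on single libraries, among the members and among all genes. Leaving out otu5 control replicate 1, 2 or 3 left 4, 3 and 2 members called lower and 1, 1 and 0 higher. Leaving out WT control replicate 1, 2 or 3 left 3, 5 and 2 called lower and 2, 1 and 0 higher. Over all genes 1127 were called lower and 990 higher with all libraries. Without otu5 control replicate 1, 2 or 3 these were 862 and 751, 417 and 364, and 377 and 325. Without WT control replicate 1, 2 or 3 they were 563 and 497, 754 and 702, and 429 and 384. PAF2 kept its call in all 6 of these fits, PBG1 lost it without otu5 control replicate 3 (adjusted p = 0.054), and PAD1, PBA1, PBE1 and PAG1 lost theirs in each, with adjusted p-values up to 0.096, 0.1, 0.14 and 0.15. The call of PAF1 ended without replicate 2 of otu5 control or replicate 3 of WT control, that of RPN2B without replicate 3 of either group, and that of RPN3B without replicate 3 of either group or replicate 1 of WT control. RPN1A kept its call only without WT control replicate 1, and RPN8A only without WT control replicate 2. Log2 differences of the 11 called genes kept their sign in all of these fits.

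Of 10 markers of dividing cells, 8 had log2 differences below 0 on control medium and 7 on low Pi, the direction of most core genes. The others went the other way and were not called. They were PLT1 (0.34 ± 0.26 on both media), PLT2 (0.06 ± 0.23 on control medium, 0.23 ± 0.23 on low Pi) and, on low Pi, MCM2 (0.01 ± 0.07). On control medium 5 of 10 such markers were called lower and 0 higher, with summed levels of 196 to 207 RPKM in otu5 control and 239 to 262 RPKM in WT control. On low Pi 4 of 10 were called lower and 0 higher, with 177 to 212 RPKM in otu5 low Pi and 225 to 239 RPKM in WT low Pi. Of the 12 green tissue markers, 4 were called higher in otu5 on control medium, with sums of 1152 to 1252 RPKM in otu5 control and 876 to 1058 RPKM in WT control. On low Pi 2 were called higher, with sums of 868 to 882 RPKM in otu5 and 677 to 855 RPKM in WT. Of the 5 endodermis markers 0 were called on control medium and 1, CASP1, was called lower on low Pi. The shares of all genes tested were 5.52% called lower and 4.85% higher on control medium, and 5.91% and 4.0% on low Pi. None of these markers was at 0 in every library, and their part in the proteasome results was not tested.

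On low Pi, core genes were again called lower and base genes higher. In otu5 low Pi against WT low Pi, 5 members were called lower and 4 higher, against a background of 5.91% called lower and 4.0% called higher among all genes. Of the 23 core genes 4 were called lower and 0 higher, 19 were below 0 (48.8% of all genes were), and the median log2 difference was -0.12, against 0.006 for all genes. The 15 base genes had 3 called higher and 0 lower, with a median of 0.12. The 13 lid genes had 1 called in each direction and a median of -0.01. RPN1A, RPN2B, PAF1, PBA1 and RPN3B were called in the same direction on both media. The otu5 libraries lay entirely below WT on both media for 12 members, 10 core genes and the lid genes RPN3B and RPN8A, and entirely above on both media for 4 base genes. Among all genes, 8.05% were lower and 7.28% higher in this way on both media, and on low Pi alone 14.5% were lower and 14.6% higher.

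RPN2B had 42.7, 47.2 and 40.5 RPKM in otu5 low Pi, against 35.1, 36.3 and 35.8 RPKM in WT low Pi, a log2 difference of 0.28 ± 0.05 (adjusted p = 0.012) and the highest of the members. RPN1A had 77.0, 83.1 and 75.9 RPKM in otu5 low Pi, against 69.1, 67.4 and 63.5 RPKM in WT low Pi (log2 difference 0.24 ± 0.05, adjusted p = 0.018). Its paralogue RPN1B (AT4G28470) had 37.5, 38.5 and 38.5 RPKM in otu5 low Pi, against 34.5, 32.9 and 34.3 RPKM in WT low Pi (0.17 ± 0.05, adjusted p = 0.042). Both genes of this scaffold were thus higher in every otu5 library on low Pi. RPN5B (AT5G64760), the less abundant gene of its lid subunit, had 23.7, 25.5 and 23.9 RPKM in otu5 low Pi, against 20.8, 19.7 and 20.7 RPKM in WT low Pi. Its log2 difference was 0.25 ± 0.05 (adjusted p = 0.016). Its locus overlaps AT5G64750, a gene of 4.07 RPKM that was higher in otu5 by 0.52 ± 0.14 (adjusted p = 0.039). Among the RPT genes, RPT1A had the highest difference after RPT6B. It had 217, 247 and 203 RPKM in otu5 low Pi, against 192, 196 and 186 RPKM in WT low Pi. The libraries did not overlap, but the difference of 0.21 ± 0.06 was not called (adjusted p = 0.064).

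PAC1, an alpha gene with no paralogue among the members, had the lowest log2 difference on low Pi. It had 113, 123 and 110 RPKM in otu5 low Pi, against 139, 136 and 132 RPKM in WT low Pi (-0.23 ± 0.05, adjusted p = 0.023). PAF1 had 128, 135 and 120 RPKM in otu5 low Pi, against 147, 147 and 143 RPKM in WT low Pi (-0.19 ± 0.05, adjusted p = 0.033). PBA1 had 111, 120 and 108 RPKM in otu5 low Pi, against 129, 129 and 123 RPKM in WT low Pi (-0.17 ± 0.05, adjusted p = 0.049). All 3 core genes were lower in every otu5 library, with the smallest gap in PBA1. PBB1 had 109, 121 and 114 RPKM in otu5 low Pi, against 128, 128 and 135 RPKM in WT low Pi (-0.19 ± 0.05, adjusted p = 0.045). RPN3B had 26.3, 26.7 and 26.9 RPKM in otu5 low Pi, against 31.2, 29.6 and 30.5 RPKM in WT low Pi (-0.19 ± 0.04, adjusted p = 0.02). PBG1, the lowest on control medium, had 130, 143 and 119 RPKM in otu5 low Pi, against 148, 150 and 145 RPKM in WT low Pi, and its log2 difference of -0.17 was not called (adjusted p = 0.099).

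**Figure D2:**
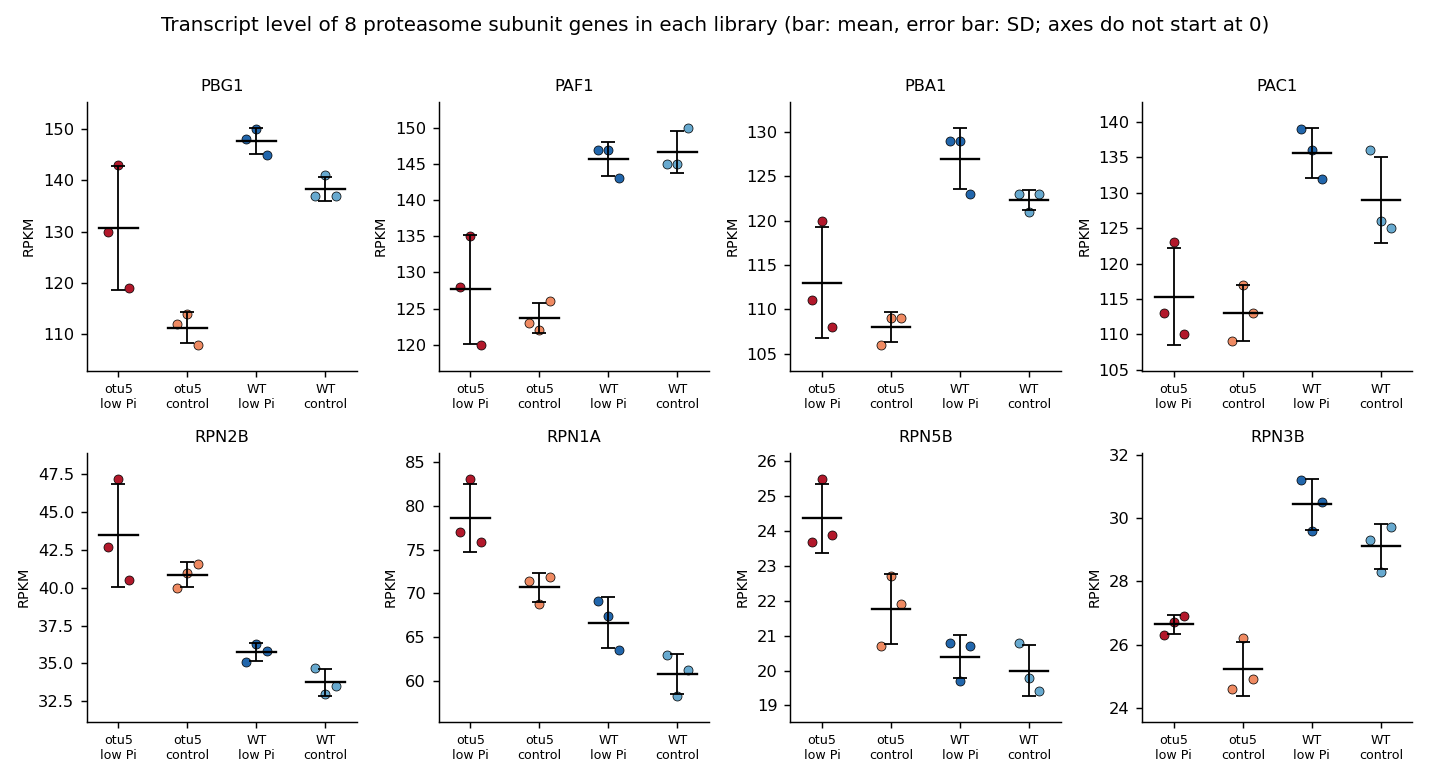
RPKM of 8 members in each library, by group, with bars for the mean and error bars for the SD of 3 libraries. PBG1, PAF1, PBA1, PAC1 and RPN3B are lower in otu5 than in WT on both media, and RPN2B and RPN1A are higher. Replicate 2 of otu5 low Pi is the highest of its group for 7 of the 8 genes.

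Among the otu5 low Pi libraries, replicate 2 held the highest value of its group for 42 of the 52 members and replicate 3 the lowest for 36. Summed over the 52 members the level was 4548, 4895 and 4377 RPKM in otu5 low Pi replicates 1, 2 and 3. The summed markers of dividing cells were at 180, 177 and 212 RPKM in the same libraries, and their part in these values was not tested. Without otu5 low Pi replicate 1, 2 or 3 in turn, 0, 7 and 1 members were called lower than in WT low Pi and 2, 2 and 7 higher. Without WT low Pi replicate 1, 2 or 3, 0, 1 and 4 were called lower and 3, 1 and 3 higher. Over all genes 1206 were called lower and 817 higher with all libraries. Without otu5 low Pi replicate 1, 2 or 3 these were 548 and 282, 1042 and 611, and 970 and 782. Without WT low Pi replicate 1, 2 or 3 they were 531 and 301, 580 and 365, and 1368 and 883. RPN2B kept its call in all 6 fits, RPN5B lost it without WT low Pi replicate 2 (adjusted p = 0.061), and RPN3B lost it without replicate 1 of either group. The call of RPN1A ended without otu5 replicate 1 or 2 or WT replicate 2. Those of PAF1, PAC1 and PBA1 ended without otu5 replicate 1 or 3 or WT replicate 1 or 2, that of PBB1 without any of these or WT replicate 3, and that of RPN1B in each of the 6 fits. All 9 log2 differences kept their sign.

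The balance of transcripts between the parts of the particle can be read from sums of RPKM. The 20S core summed to 2217, 2371 and 2121 RPKM in otu5 low Pi and 2071, 2094 and 2080 RPKM in otu5 control, against 2418, 2416 and 2361 RPKM in WT low Pi and 2335, 2289 and 2312 RPKM in WT control. On control medium the otu5 sums were all below the WT sums, and on low Pi otu5 replicate 2 overlapped WT. The sum over 19S genes divided by the sum over 20S genes was 1.05, 1.06 and 1.06 in otu5 low Pi and 1.07, 1.06 and 1.05 in otu5 control, against 0.966, 0.953 and 0.945 in WT low Pi and 0.978, 0.956 and 0.959 in WT control. Every otu5 library had a ratio above every WT library, including the otu5 low Pi library whose summed level stood apart. The RPT genes alone over the 20S core gave 0.468 ± 0.0044 in otu5 low Pi and 0.463 ± 0.00632 in otu5 control, against 0.409 ± 0.00569 in WT low Pi and 0.411 ± 0.0023 in WT control (SD, n = 3 each). These ratios compare summed RNA levels per length, and the members were chosen with results of these data known, so they carry no test.

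**Figure D3:**
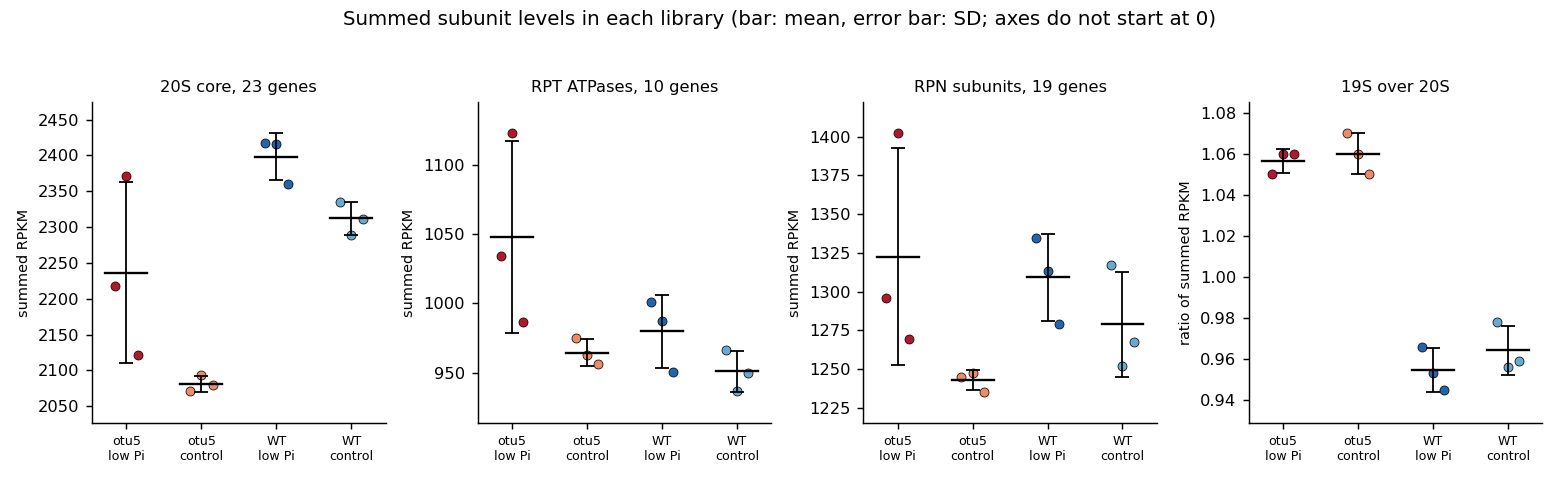
Summed RPKM of the 20S core, RPT and RPN genes, and the ratio of the 19S sum to the 20S sum, in each library, with bars for the mean and error bars for the SD of 3 libraries. The ratio lies at or above 1.05 in the 6 otu5 libraries and at or below 0.978 in the 6 WT libraries.

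Across the 12 libraries, pairs of core genes varied together more closely than pairs within the 19S particle. The median Pearson r was 0.676 over 253 pairs of core genes, 0.309 over 406 pairs of 19S genes and 0.244 over 667 pairs of 1 core and 1 19S gene. All pairs share the 12 libraries and the 4 groups, so these values describe the libraries and carry no test.

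Transcript levels were also summed per subunit over its paralogues, which does not measure protein. PBG, which has 1 gene, was at 131 ± 12.1 RPKM in otu5 low Pi and 111 ± 2.84 in otu5 control, against 147 ± 2.52 in WT low Pi and 138 ± 1.83 in WT control. The PAF sum was at 175 ± 10 RPKM in otu5 low Pi and 170 ± 1.01 in otu5 control, against 199 ± 3.23 in WT low Pi and 203 ± 3.33 in WT control. In the base, the RPN1 sum was at 117 ± 4.09 RPKM in otu5 low Pi and 106 ± 0.402 in otu5 control, against 101 ± 2.91 in WT low Pi and 94.0 ± 3.62 in WT control (SD, n = 3 each, for all 3 subunits). The RPN2 sum was 13.4% higher in otu5 than in WT on low Pi and 10.6% higher on control medium, and the RPT1 subunit, of which RPT1A is the only gene counted, 16.2% and 8.18% higher. On control medium RPT1, RPT5, RPN1 and RPN2 were the 19S subunits whose otu5 libraries all lay above WT, and 7 lay entirely below: RPT4, RPN3, RPN6, RPN7, RPN8, RPN10 and RPN11. On low Pi RPT1, RPN1 and RPN2 lay above and RPN3 below. No background share was computed for sums over paralogues, so these counts of subunits are a description.

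Most duplicated subunits drew on their paralogues in unequal parts. RPN12A (AT1G64520) provided 98.9% of the RPN12 pair in otu5 low Pi and 98.6% in otu5 control, against 99.0% in WT low Pi and 98.8% in WT control, whereas PAE1 and PAE2 were nearly equal, at 49.3% and 47.5% PAE1 in otu5 low Pi and control, against 50.0% and 47.9% in WT low Pi and control. On control medium the share of the first-named paralogue was lower in every otu5 library than in every WT library for 9 of 20 pairs and higher for 2. On low Pi it was lower for 8 pairs and higher for 2. The 2 pairs that were higher on both media were RPT4 and RPN3. No background share was computed for pairs, so these counts are a description.

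RPT6 shifted most. RPT6A (AT5G19990) made up 58.3%, 53.9% and 62.2% of the pair in otu5 low Pi and 61.2%, 63.6% and 61.1% in otu5 control, against 62.3%, 62.5% and 63.4% in WT low Pi and 66.7%, 66.5% and 67.5% in WT control. It was lower in otu5 than in WT on both media and lower in WT low Pi than in WT control. RPT6A and RPT6B are neighbouring, closely similar genes, so the split of their reads is uncertain. PAD1 provided 77.4% ± 2.02 of its pair in otu5 low Pi and 74.5% ± 1.09 in otu5 control, against 79.7% ± 1.34 in WT low Pi and 78.4% ± 0.434 in WT control. PBB1 provided 61.5% ± 1.02 in otu5 low Pi and 61.1% ± 0.756 in otu5 control, against 65.0% ± 1.3 in WT low Pi and 64.0% ± 1.56 in WT control, while its paralogue PBB2 (AT5G40580) averaged 71.5 and 69.6 RPKM in otu5 low Pi and control, against 70.1 and 69.3 RPKM in WT low Pi and control. PAA1 (AT5G35590) provided 50.5% ± 0.338 in otu5 low Pi and 50.2% ± 0.337 in otu5 control, against 53.7% ± 1.28 in WT low Pi and 53.5% ± 2.01 in WT control (SD, n = 3, for the 3 pairs). In the PAA pair, PAA2 (AT2G05840) was at 134 ± 4.48 RPKM in otu5 low Pi, against 122 ± 2.38 RPKM in WT low Pi, and was not called (adjusted p = 0.078). Of these 4 pairs, libraries of the 2 genotypes overlapped only for PAD1 on low Pi. How the authors' counting shares reads between paralogues is not given, so each split carries that uncertainty.

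**Figure D4:**
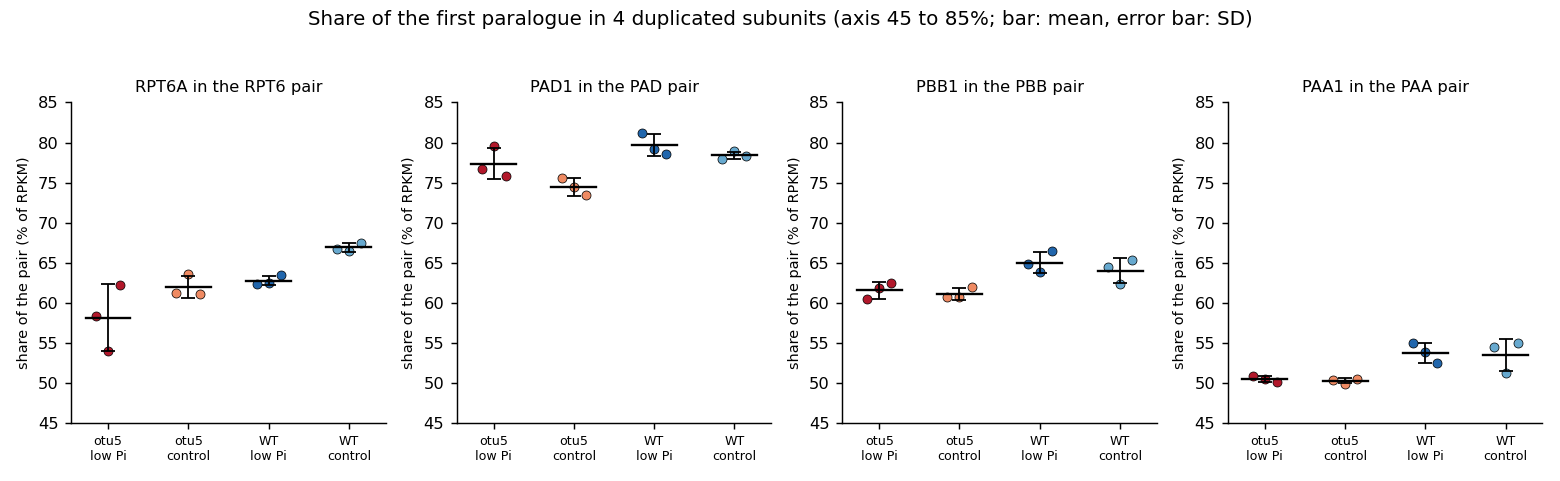
Share of the first paralogue in the summed RPKM of its pair, in percent, for the 4 pairs with the largest shift between groups, in each library, with bars for the mean and error bars for the SD. RPT6A ranges from 53.9% to 67.5% over the 12 libraries, and PBB1 and PAA1 are lower in every otu5 library than in every WT library on the same medium.

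Few members were called for a response to low Pi. In WT, low Pi against control, 0 of 52 members were called in limma, against a background of 2.55% called higher and 1.74% called lower, and at an unadjusted p under 0.05 there were 3 higher and 1 lower. The largest rises were in RPT6B (0.17 ± 0.08, adjusted p = 0.3), the beta gene PBD2 (AT4G14800, 0.17 ± 0.05, adjusted p = 0.095) and the alpha gene PAB2 (AT1G79210, 0.13 ± 0.06, adjusted p = 0.22). PBD2 had 94.8, 93.6 and 91.5 RPKM in WT low Pi, against 88.0, 79.5 and 82.0 RPKM in WT control, without overlap. The lowest differences were those of RPN12B (-0.20 ± 0.33), RPN8B (AT3G11270, -0.10 ± 0.05) and RPT6A (-0.10 ± 0.04), none of them called. The median over the members was 0.03 and 39 were above 0, as were 48.4% of all genes. The WT low Pi libraries lay entirely above WT control for 15 members and below for 3, a pattern of 12.8% and 12.5% of all genes.

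In otu5, low Pi against control, 1 member was called higher and 0 lower, against a background of 4.81% and 3.78%. The called gene was PBG1, which had 130, 143 and 119 RPKM in otu5 low Pi, against 112, 114 and 108 RPKM in otu5 control (log2 difference 0.23 ± 0.06, adjusted p = 0.04). The libraries did not overlap. PBG1 was called without otu5 low Pi replicate 3 and not called without any other single library of the 2 groups, where its adjusted p reached 0.15. At an unadjusted p under 0.05 there were 18 higher and 0 lower. The median over the 52 members was 0.08, against -0.011 for all genes, and 49 of the 52 members were above 0, as were 47.2% of all genes. The otu5 low Pi libraries lay entirely above otu5 control for 21 members and below for 0, with a background of 14.1% and 14.3%. RPT1A had a difference of 0.22 ± 0.06 (adjusted p = 0.061) and RPT6B of 0.21 ± 0.08 (adjusted p = 0.15), and the 3 lowest were RPN12B (-0.25 ± 0.33), PAD2 (-0.06 ± 0.07) and RPT6A (-0.02 ± 0.04), none of them called. Without otu5 low Pi replicate 3, the library with the lowest proteasome sum of its group, 11 members were called higher. Without any other single library of the 2 groups 0 were. Over all genes 982 were called higher with all libraries, 1491 without that replicate and 304 to 649 without any other. Green tissue markers were lower on low Pi in otu5, with 7 of 12 called, and in WT, with 2 of 12 called. Of all genes tested, 3.78% were called lower in otu5 and 1.74% in WT. The part of these markers in the proteasome results was not tested.

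The difference between the 2 responses to low Pi, the interaction of genotype and medium, was called in limma for 0 of 52 members and for 0.0049% of all genes, which is 1 gene. At an unadjusted p under 0.05 there was 1 member, the lid gene RPN9B (AT4G19006), which had a difference of 0.17 ± 0.07 (unadjusted p = 0.035, adjusted p = 0.89). RPN8B (0.17 ± 0.08) and PBG1 (0.14 ± 0.09) were next, and PAC1 (-0.05 ± 0.08), RPN12B (-0.05 ± 0.46) and PAD2 (-0.03 ± 0.10) were lowest, none of them called. The comparisons above share libraries, since each group enters 2 of them, so their values are set side by side and are not independent.

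Calls among genes that assemble, extend or feed the proteasome are given next by list. Among all genes tested, 5.52% were called lower and 4.85% higher in otu5 than in WT on control medium. On low Pi 5.91% were called lower and 4.0% higher. For low Pi against control, 4.81% of all genes were called higher in otu5 and 2.55% in WT. Of the 6 assembly chaperone genes, 1 was called lower in otu5 on control medium, and 1 lower and 1 higher on low Pi. UMP1A (AT1G67250), which encodes a chaperone of 20S assembly, was lower on both media. It had 97.8, 105 and 94.2 RPKM in otu5 low Pi and 88.6, 86.3 and 89.7 RPKM in otu5 control, against 122, 117 and 119 RPKM in WT low Pi and 118, 115 and 110 RPKM in WT control. Its log2 difference was -0.27 ± 0.05 on low Pi (adjusted p = 0.0091) and -0.37 ± 0.05 on control medium (adjusted p = 0.0025), with no overlap on either. With only the compared groups in the fit the low Pi call was lost (adjusted p = 0.065). HSM3 (AT3G15180) is named after a yeast chaperone of base assembly. It had 23.1, 24.6 and 21.6 RPKM in otu5 low Pi, against 18.6, 19.5 and 18.2 RPKM in WT low Pi (0.29 ± 0.06, adjusted p = 0.013), and on control medium its difference of 0.19 ± 0.06 was not called (adjusted p = 0.065). The low Pi call of HSM3 was lost without the expression filter (adjusted p = 0.056) and with only the compared groups in the fit (adjusted p = 0.068). The other 4 of 6 assembly chaperone genes were not called in any comparison.

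PA200 (AT3G13330), an alternative activator that caps the 20S core in place of the 19S particle, had 39.0, 44.5 and 35.5 RPKM in otu5 low Pi and 35.6, 32.2 and 33.1 RPKM in otu5 control, against 29.7, 33.2 and 30.3 RPKM in WT low Pi and 26.2, 27.8 and 28.3 RPKM in WT control. It was higher in otu5 by 0.34 ± 0.08 on low Pi (adjusted p = 0.023) and 0.29 ± 0.08 on control medium (adjusted p = 0.045), without overlap. The control call was lost without any single library of the 2 groups (adjusted p up to 0.13). The low Pi call was lost without replicate 1 of either group or otu5 replicate 2 (adjusted p up to 0.089). Both calls were also lost in some other fits, among them the fit without the expression filter. With only the compared groups in the fit the low Pi call was lost too. Over all fits the adjusted p reached 0.15 on control medium and 0.1 on low Pi. PA200 was the only gene called among 6 other 26S genes and partners. CDC48B (AT3G53230), a paralogue of the segregase that unfolds ubiquitinated proteins ahead of the proteasome, showed the largest difference of these lists. It had 59.8, 66.0 and 46.5 RPKM in otu5 low Pi and 51.7, 41.2 and 47.2 RPKM in otu5 control, against 34.9, 35.3 and 36.5 RPKM in WT low Pi and 29.5, 29.3 and 30.1 RPKM in WT control. The log2 difference was 0.67 ± 0.11 on low Pi (adjusted p = 0.0061) and 0.64 ± 0.11 on control medium (adjusted p = 0.0084), and every otu5 library was above every WT library. With only the compared groups in the fit the low Pi call was lost (adjusted p = 0.051). CDC48A (AT3G09840), the most abundant gene of the family here, had 346, 401 and 328 RPKM in otu5 low Pi, against 296, 286 and 274 RPKM in WT low Pi. Its difference of 0.33 ± 0.07 was called on low Pi (adjusted p = 0.021), and its difference of 0.24 ± 0.07 on control medium was not (adjusted p = 0.065). The low Pi call was lost without otu5 replicate 1 or without WT replicate 2 or 3 (adjusted p up to 0.063). It was also lost without the expression filter and with only the compared groups in the fit (adjusted p up to 0.093). Of the 6 CDC48 complex genes, 2 were called higher on low Pi and 1 on control medium, with 0 called lower.

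**Figure D5:**
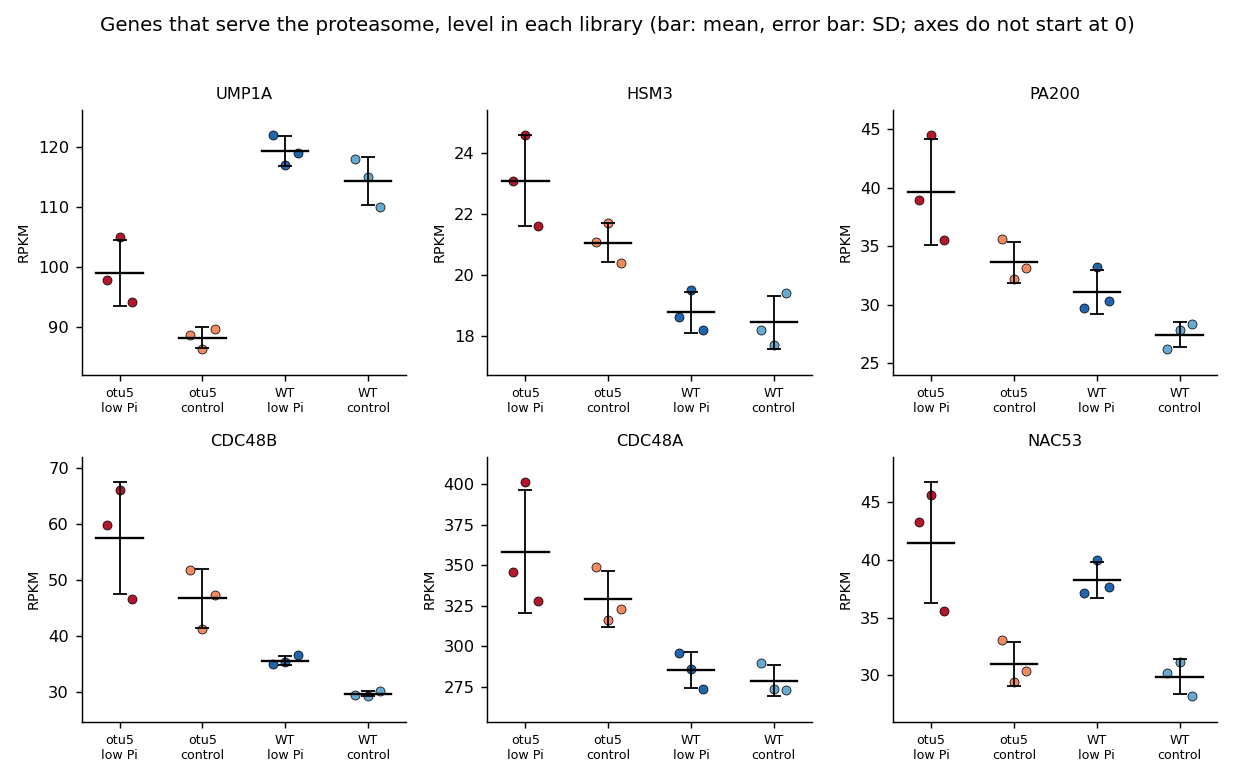
RPKM of 6 genes that serve the proteasome, in each library, by group, with bars for the mean and error bars for the SD of 3 libraries. UMP1A is lower in every otu5 library than in every WT library, PA200 and CDC48B are higher on the same medium, and NAC53 is higher on low Pi than on control medium in both genotypes.

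NAC53 (AT3G10500) and NAC78 (AT5G04410) are transcription factors known in Arabidopsis for raising proteasome gene expression when proteasome activity is impaired. Neither was called between genotypes. NAC53 had 43.3, 45.6 and 35.6 RPKM in otu5 low Pi, against 33.1, 29.4 and 30.4 RPKM in otu5 control, and 37.1, 40.0 and 37.7 RPKM in WT low Pi, against 30.2, 31.2 and 28.2 RPKM in WT control. It rose on low Pi by 0.41 ± 0.09 in otu5 (adjusted p = 0.018) and by 0.35 ± 0.09 in WT (adjusted p = 0.046), and the interaction was not called. With the replicate number as a block in WT, a pairing taken from the data, the adjusted p in WT was 0.059. The WT call was lost without any single library of the 2 groups (adjusted p up to 0.17), and the otu5 call without otu5 low Pi replicate 1 or 2 or otu5 control replicate 2 or 3 (adjusted p up to 0.073). Of 11 genes for ubiquitin shuttles and proteasome deubiquitinases, 1 was called lower in otu5 on control medium, RAD23D (AT5G38470, -0.18 ± 0.04, adjusted p = 0.026), and 0 were called between genotypes on low Pi. UBP6 (AT1G51710) was called higher in otu5 low Pi than in otu5 control (0.17 ± 0.05, adjusted p = 0.046). Each of these 2 calls was lost without 5 of 6 single libraries, RAD23D keeping it only without WT control replicate 1 and UBP6 only without otu5 low Pi replicate 3 (adjusted p up to 0.094 and 0.15). The COP9 signalosome, a complex related to the lid in structure, had 10 genes tested, and 1 was called, CSN8 (AT4G14110), lower in otu5 on low Pi by -0.21 ± 0.05 (adjusted p = 0.036). CSN8 kept its call only without otu5 low Pi replicate 3 (adjusted p up to 0.12 without the others). The calls of NAC53, RAD23D, UBP6 and CSN8 were also lost without the expression filter. With only the compared groups in the fit they were lost as well, except that of NAC53 in WT.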

How the data were processed

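The values are the authors' deposited RPKM, 1 column for each of 12 RNA libraries. TopHat2 2.0.4, Cuffdiff and TAIR10 are named, with no role given, in the submitters' processing notes. How the authors scaled libraries, counted strand and shared reads between similar genes is not given in these sources, and any scaling hides a change in total mRNA. Size factors of the deposited values lay between 0.9991 and 1.001. Groups follow titles, because the culture condition label, which follows genotype, contradicts the title of 6 libraries. OTU5 levels check the genotype only, and no gene was used here to check the medium.

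For testing, 0.5 was added to each RPKM before log2 transformation, which understates differences of low genes, and limma 3.58.1 (R 4.3.3) was used. One fit of 4 group means over 20411 genes (8 residual degrees of freedom, trend and robust estimation) gave 5 comparisons, with Benjamini-Hochberg adjustment over all genes tested and a threshold of 0.05. The procedure was tested on simulated data with independent noise. Its recovery of differences as small as those of the members is not reported here. Same-numbered WT libraries deviated from their group means together (r = 0.204, 0.259 and 0.114). A replicate block was therefore taken to apply in WT, a pairing taken from the data, and in no other comparison. Differently numbered libraries of otu5 low Pi and WT low Pi reached r = 0.254, so the pairing in WT is uncertain.

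The members and lists were chosen with earlier results of these data known. Named genes are the called members, the 3 highest and 3 lowest per comparison, the extremes of level in each class, the 4 pairs with the largest shift, up to 4 called genes per further list and OTU5. PAE1, PAE2, RPN10, RPN11, RPN12A and RPN13 were named after their values were seen. Locus overlaps come from RefSeq genes (TAIR10.1), where all 52 members matched. Methylation and chromatin samples were not analysed here.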

Additional observations from a re-analysis of the deposited data

How the results depend on the processing

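No called difference changed sign under the alternatives run, and the counts of members called depended on the fit. Otu5 against WT on control medium (2 higher, 9 lower) gave 0 and 1 without a filter on low values, where 33557 genes were tested. Array weights gave 7 and 21, quantile normalization 5 lower, and only the compared groups 4 lower. Over all genes the main fit called 990 higher and 1127 lower, no filter 242 and 245, and array weights 3280 and 3515. Quantile normalization called 860 and 980 of all genes, and only the compared groups 842 and 1075. Leaving out each replicate gave 0 to 2 higher and 2 to 5 lower. On low Pi (4 higher, 5 lower) no filter gave 0 and 0, array weights 8 and 11, and only the compared groups 0 and 0. Quantile normalization gave 1 lower, and the fit without trend and robust estimation 3 lower. Over all genes the main fit called 817 higher and 1206 lower on low Pi, no filter 216 and 386, and array weights 1962 and 2420. Only the compared groups called 184 and 318 of all genes, quantile normalization 882 and 992, and no trend 733 and 1063. Leaving out each replicate gave 1 to 7 higher and 0 to 7 lower. For low Pi in WT, array weights gave 1 member higher, and 1186 of all genes against 520 in the main fit. For low Pi in otu5 (1 higher), no filter, no trend and only the compared groups gave 0. Quantile normalization gave 4, array weights 21, and leaving out each replicate 0 to 11. Of all genes the main fit called 982 higher, no filter 233, no trend 880 and only the compared groups 449. Quantile normalization called 1110 of all genes higher and array weights 3651. The cause was not tested.

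The replicate block left 2 members called lower and 3 higher on low Pi, and 6 lower and 2 higher on control medium. A block in WT alone, where the pairing was taken from the data, ended the call of NAC53 and changed no other call. The median log2 difference of the core genes stayed between -0.16 and -0.12 on control medium and between -0.17 and -0.05 on low Pi, while that of all members on low Pi crossed 0, from -0.06 to 0.02. Of the named genes, pseudocounts of 0.1 and 1 changed only the call of PAC1 on control medium, which passed at 0.1. Absolute depth is unknown, so counting error cannot be separated from other spread.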
